A study of Mus musculus with 6 samples.

Results

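Described here are 8 probe sets of 45101 on the array, chosen by their higher signal with 4-hydroxytamoxifen (OHT) in every clone of this series and by their annotation to gene families of the 2-cell embryo. They stand for Zscan4 genes, Usp17la, AF067061, Gm20767, Gm4027 with its relatives, a run of 7 genes that includes Gm4340, a run of 3 genes that includes Gm13057, and BC080696. A probe set is the group of short probes whose combined signal stands for a transcript. All 8 were found in the table, and all 8 had a mean signal above 61.5, the limit under which the 40% dimmest probe sets fall. The choice used the OHT+ and OHT- values, so the OHT differences below are a description and carry no test.

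Total RNA of 3 clones of mouse embryonic stem cells, 129/B6 hybrid by strain, was hybridised to 6 arrays in all. Clone 3031 has wild-type Yaf2 (Yaf2wt), and clones 3086 and 3087, labelled as biological duplicates, are Yaf2 mutants also called knockdowns (Yaf2kd). Each clone was measured untreated (OHT-) and after 0.8 µM OHT for 24 hours (OHT+), which is given to deplete Rybp. The 4 groups therefore hold 1 Yaf2wt OHT+, 1 Yaf2wt OHT-, 2 Yaf2kd OHT+ and 2 Yaf2kd OHT- arrays. Rybp is labelled wild type in all OHT- groups and mutant in all OHT+ groups. No array of OHT-treated cells with intact Rybp is in these groups, so OHT and Rybp loss cannot be told apart, and Yaf2wt is a single clone, so Yaf2 status and clone cannot be told apart either. All cultures had serum and LIF (ESGRO); which were grown on feeder fibroblasts and which on gelatin is not stated per array, nor is the driver of the recombinase.

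Rybp and Yaf2 are related subunits of Polycomb repressive complex 1, which ubiquitinates histone H2A and holds many genes silent. In mouse embryos the first large wave of transcription comes at the 2-cell stage and includes gene families that exist in many near-identical copies, such as Zscan4, Usp17l, Tcstv, Eif1a-like and PRAME-like genes. In embryonic stem cell cultures a small, changing fraction of cells transiently expresses the same families and is called 2-cell-like. In RNA from a whole culture, a larger fraction of such cells and more RNA per cell cannot be told apart.

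The annotation gives 23 gene symbols for the 8 probe sets, and all 23 gene identifiers were found in RefSeq (GRCm38.p6, used for names, neighbours and promoter sequence). Of the 23 genes 21 are listed as protein-coding; Zscan4a is a transcribed pseudogene and BC080696 a misc_RNA. A single symbol is given for 4 probe sets, namely Usp17la for 1420773_at, AF067061 for 1425220_x_at, Gm20767 for 1425427_at and BC080696 for 1445849_at. The other 4 carry several. The Zscan4 set, 1457033_at, is annotated to Zscan4a, Zscan4c, Zscan4d and Zscan4f, with LOC100862413 and LOC100862415. The 7 symbols of the Gm4340 run, 1443961_at, are Gm4340, Gm6763, Gm8764, Gm20765, Gm21293, Gm21304 and Gm21312, which stand in RefSeq as an unbroken run of 7 neighbouring genes. The Gm13057 run, 1442334_at, is Gm13040, Gm13043 and Gm13057, 3 adjacent genes. The Gm4027 set, 1427479_at, is annotated to Gm4027 and BB287469, with 8 other genes between them, and to Eif1a, which lies on another chromosome.

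The 1-symbol members also sit among relatives. BC080696 has 8 genes named Pramel among the 6 genes on either side of it, 12 in all, and the Gm13057 run has 5 of 12. Gm20767 and AF067061 have 6 genes between them, and 4 genes separate AF067061 from Tcstv3, a 2-cell-stage family member. Usp17la is adjacent to Usp17lb. The AF067061 probe set carries the suffix x in its name, the array maker's mark for probes that can match transcripts of other genes. The probe sequences themselves are not used here.

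To show how alike the copies are, and what stands before genes whose signals were alike across the arrays, the 250 bases before the annotated start of 1 gene for each of 6 probe sets are given 5′ to 3′ from RefSeq, build GRCm38.p6, all on the plus strand. RefSeq promoter entries were found for 16 of the 23 genes. Capitals mark TATAAA and GATTNAAT, each on either strand; where 2 matches overlap, the capitals run together. The windows are chr7:11005495-11005744 for Zscan4c, chr7:104856766-104857015 for Usp17la, chr13:120262845-120263094 for AF067061, chr12:87618659-87618908 for Gm4027, chr10:104193792-104194041 for Gm4340 and chr4:143551450-143551699 for Gm13057.
Zscan4c: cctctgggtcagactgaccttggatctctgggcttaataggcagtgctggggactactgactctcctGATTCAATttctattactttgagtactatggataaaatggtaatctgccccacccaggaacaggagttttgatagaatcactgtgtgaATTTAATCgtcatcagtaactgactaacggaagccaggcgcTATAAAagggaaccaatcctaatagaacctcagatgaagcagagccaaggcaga
Usp17la: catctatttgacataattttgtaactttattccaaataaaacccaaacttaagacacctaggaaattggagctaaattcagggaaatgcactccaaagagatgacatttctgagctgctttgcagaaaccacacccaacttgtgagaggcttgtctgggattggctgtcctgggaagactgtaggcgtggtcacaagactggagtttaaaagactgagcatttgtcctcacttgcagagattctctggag
AF067061: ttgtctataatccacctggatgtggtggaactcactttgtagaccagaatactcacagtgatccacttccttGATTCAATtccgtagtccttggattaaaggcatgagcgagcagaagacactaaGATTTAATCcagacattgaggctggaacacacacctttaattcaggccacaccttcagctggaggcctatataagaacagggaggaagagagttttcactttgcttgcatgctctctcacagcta
Gm4027: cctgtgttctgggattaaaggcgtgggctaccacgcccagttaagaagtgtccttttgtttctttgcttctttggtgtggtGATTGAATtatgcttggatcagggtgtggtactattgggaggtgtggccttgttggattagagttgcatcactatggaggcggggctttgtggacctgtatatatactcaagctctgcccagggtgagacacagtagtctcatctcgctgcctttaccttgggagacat
Gm4340: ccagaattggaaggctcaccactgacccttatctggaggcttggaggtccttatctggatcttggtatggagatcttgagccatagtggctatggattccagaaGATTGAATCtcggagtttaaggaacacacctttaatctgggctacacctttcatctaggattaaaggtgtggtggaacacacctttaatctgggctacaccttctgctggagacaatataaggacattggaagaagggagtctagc
Gm13057: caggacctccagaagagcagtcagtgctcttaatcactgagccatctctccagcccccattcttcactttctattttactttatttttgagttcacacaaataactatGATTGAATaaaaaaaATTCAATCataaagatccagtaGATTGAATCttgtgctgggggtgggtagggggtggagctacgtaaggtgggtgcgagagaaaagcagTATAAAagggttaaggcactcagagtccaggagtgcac

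Within a probe set these windows were nearly the same. The 15 pairs among 6 genes of the Gm4340 run matched at 100% over 249 or 250 aligned bases. Gm4027 and BB287469 matched at 100% over 209 bases, the shared part of 2 windows with shifted starts. The 3 pairs of Zscan4 windows matched at 96.8% to 99.6% over 216 to 238 bases, and the 3 pairs of the Gm13057 run at 93.2% to 100% over 219 to 250 bases. GATTNAAT, searched on both strands, was in 15 of the 16 windows and in 1.81% of all 32851 windows of 250 bases; Usp17la was the window without it. This motif was picked after these windows had been read, and the copies share their sequence, so the 15 are no independent count. TATAAA, searched on both strands, was in 6 of the 16 (the 3 Zscan4 genes and the Gm13057 run) and in 12.4% of all windows. CACGTG, the palindromic E-box, was in 0 of the 16 and in 6.02% of all, which says only that these letters are not in these windows.

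The signals below are normalized linear intensity. Zscan4 genes encode zinc-finger and SCAN-domain proteins known for telomere maintenance in embryonic stem cells. The Zscan4 probe set read 212 without and 3351 with OHT in clone 3031, 124 and 1001 in clone 3086, and 136 and 1677 in clone 3087. All 3 OHT+ arrays lay above all 3 OHT- arrays, and clone 3031 was the highest under both conditions. On the log2 scale the OHT difference was 3.98, 3.01 and 3.62 in the same order of clones, with a mean of 3.54 ± 0.49 (SD, n = 3), which is 11.6-fold.

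Usp17la encodes a deubiquitinase of the USP17 (DUB) family. Its probe set read 59.3 without and 976 with OHT in clone 3031, 55.3 and 386 in clone 3086, and 54.3 and 519 in clone 3087. The OHT- arrays were close to each other, at 56.3 ± 2.66 (SD, n = 3), while the OHT+ arrays were spread, at 627 ± 309. The log2 difference was 4.04, 2.80 and 3.26, with a mean of 3.37 ± 0.62, or 10.3-fold.

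AF067061 and Gm20767 are the pair near Tcstv3. AF067061 read 70.9 without and 902 with OHT in clone 3031, 11.9 and 256 in clone 3086, and 38.6 and 395 in clone 3087, a mean log2 difference of 3.82 ± 0.55 (SD, n = 3). Gm20767 read 48.8 and 366, 25.3 and 156, and 32.9 and 296 in the same order, a mean of 2.90 ± 0.27. Both probe sets were high on every OHT+ array and low on every OHT- array, and of the 8 members Gm20767 had the smallest mean difference.

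Gm4027 and BB287469 lie in a cluster of genes like Eif1a, which encodes a translation initiation factor that helps ribosomes find the start codon. Their probe set read 103 without and 2006 with OHT in clone 3031, 76.0 and 829 in clone 3086, and 97.5 and 1319 in clone 3087. The groups did not overlap, with the lowest OHT+ array 8.03-fold above the highest OHT- array, the widest such gap of the 8 members. The log2 difference was 4.28, 3.45 and 3.76, with a mean of 3.83 ± 0.42 (SD, n = 3), or 14.2-fold.

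The Gm4340 run read 258 without and 6612 with OHT in clone 3031, 139 and 1949.6 in clone 3086, and 198 and 3157 in clone 3087. Its log2 difference was 4.68, 3.81 and 4.00, a mean of 4.16 ± 0.46 (SD, n = 3), or 17.9-fold. Both Yaf2kd clones were below clone 3031 with OHT.

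The last 2 members lie among PRAME-like genes, a leucine-rich-repeat family expressed mostly in germ cells and early embryos. The Gm13057 run read 120.4 without and 1663 with OHT in clone 3031, 49.2 and 483 in clone 3086, and 80.7 and 798 in clone 3087, a mean log2 difference of 3.46 ± 0.28 (SD, n = 3). BC080696 read 22.0 and 455, 45.5 and 194, and 3.45 and 253 in the same order. Its log2 differences of 4.37, 2.09 and 6.20 were far apart, with a mean of 4.22 ± 2.06, and the largest of them rests on the value of 3.45 in untreated clone 3087.

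**Figure D1:**
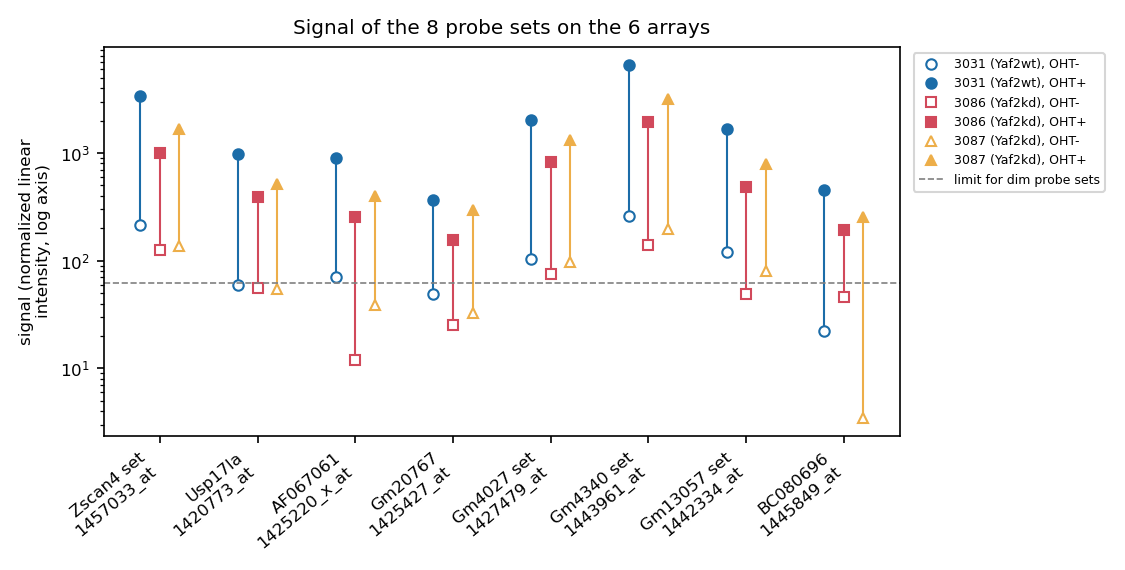
Normalized linear signal (log axis) of the 8 probe sets on each of the 6 arrays, by clone; open symbols are OHT-, filled symbols OHT+, a line joins the 2 arrays of a clone, and the dashed line is the limit of 61.5 for dim probe sets. In all 8 every filled symbol lies above every open one, and clone 3031 is the highest and clone 3086 the lowest with OHT.

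In all 8 members every OHT+ array lay above every OHT- array, which holds for 6.13% of the 45037 probe sets other than controls and for 6.89% with the 40% dimmest left out. In each clone all 8 differed by 4-fold or more, against 0.127% of all these probe sets and 0.0481% (13 of 27022) with the dimmest left out; 2-fold or more was found for 0.797% and 0.233%. The rule chose them for this, so nothing is read from these counts. By limma with Benjamini-Hochberg adjustment over all 45037, 0 probe sets passed for OHT (0%), with 2956 at an unadjusted p under 0.05; with an intensity trend 63 passed (0.14%), of which 52 were higher (0.115%). Of the 24 OHT- values of the members 12 lay under the limit of 61.5, and 0 of the 24 OHT+ values did. With every value under 62.8, the 40th percentile of all values, set to 62.8, the mean log2 differences ran from 2.03 (4.09-fold, Gm20767) to 4.16 (17.9-fold, the Gm4340 run). BC080696 went from 4.22 to 2.16 ± 0.63 (SD, n = 3), AF067061 from 3.82 to 2.78 ± 0.83 and Gm20767 from 2.90 to 2.03 ± 0.64. The mean OHT- signals of these 3 were 23.7, 40.5 and 35.7, all under that floor.

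**Figure D2:**
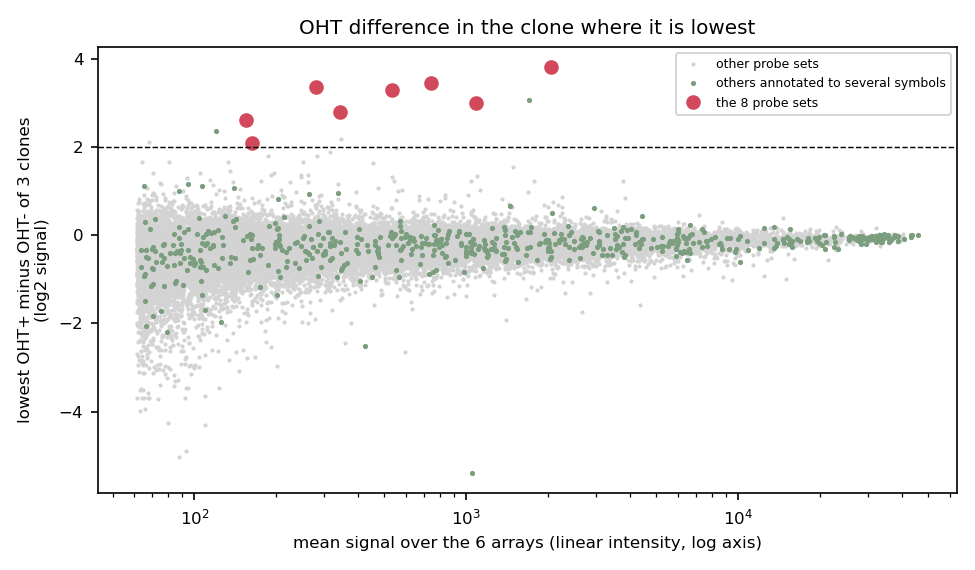
For each of the 27022 probe sets above the limit for dim signal, the mean signal over the 6 arrays (log axis) against the lowest of its 3 clone-wise OHT differences (log2); the 8 probe sets are red, others annotated to several symbols green, and the dashed line is 4-fold. All 8 lie above the line, and so do 5 others.

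The 5 other probe sets above 4-fold in all clones were those of Gm11544, Slc25a31 and Syce1, 1 of the 2 Rybp probe sets, and a probe set annotated to Gm2022, Gm5662 and Gm8300 (the Gm2022 set) of the Eif1a-like cluster. They were named after their values were seen. The 6 of these 13 with several symbols were 4 members, the Gm2022 set and the Rybp probe set. With the 8 members left out, 7 of 601 probe sets with several symbols above the limit (1.16%) reached 2-fold in all 3 clones. Of those with 1 symbol, 46 of 23025 (0.200%) did. Among the 7 were the Rybp probe set, the Gm2022 set and a Dux family probe set annotated to Gm9919, Gm4981 and Duxf3. The share of 1.16% thus partly reflects families like those the members were chosen from.

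What a symbol can hide is clearest for Eif1a. Beside the Gm4027 set, 2 probe sets are annotated to Eif1a alone. The first read 3119.7 without and 3159.9 with OHT in clone 3031, 3044 and 3447 in clone 3086, and 3073 and 3281 in clone 3087. The second read 1959 and 2105, 1755 and 2494, and 2272 and 2949.6 in the same order. Their mean log2 OHT differences were 0.097 ± 0.081 and 0.33 ± 0.21 (SD, n = 3), against 3.83 ± 0.42 for the probe set shared with Gm4027 and BB287469. In each of the 3 clones the shared probe set differed by over 3 log2 units and neither Eif1a probe set by over 0.51.

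The Dux family, whose transcription factors are known activators of 2-cell genes, has a shared and an unshared probe set too. The one annotated to Gm9919, Gm4981 and Duxf3 read 49.2 without and 107 with OHT in clone 3031, 34.5 and 82.1 in clone 3086, and 28.8 and 91.8 in clone 3087, a mean log2 difference of 1.35 ± 0.29 (SD, n = 3), from OHT- values that were all under the limit for dim signal. The one annotated to Duxf3 alone had log2 differences of 0.70, 0.080 and -0.37, with no common direction, and a mean signal of 47.3, also under that limit. In the Usp17l family the 2 probe sets shared by Usp17lc and Usp17ld had mean differences of 3.03 ± 2.01 and 2.87 ± 0.86, beside 3.37 ± 0.62 for Usp17la, but each of their 6 arrays was under the limit for dim signal. A table that keeps only probe sets with 1 symbol holds 34945 of the 45037, leaves out 932 with several, and so leaves out 4 of the 8 members, among them the only probe set annotated to Zscan4a, Zscan4c, Zscan4d or Zscan4f. Where such a probe set is kept, its value cannot be given to any 1 of the copies.

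**Figure D3:**
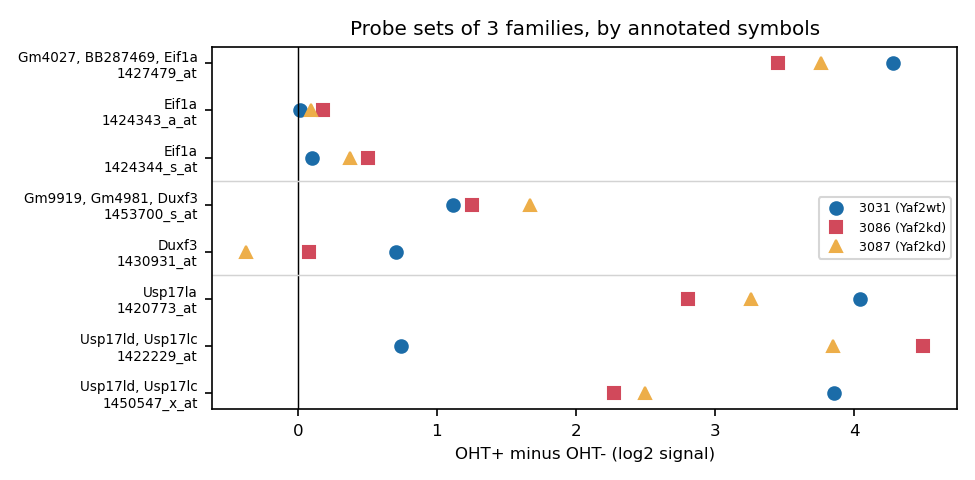
OHT+ minus OHT- (log2 signal) in each clone for probe sets of the Eif1a, Dux and Usp17l families, labelled with the symbols each is annotated to. The probe set shared by Gm4027, BB287469 and Eif1a lies between 3.45 and 4.28, and those of Eif1a alone between 0.018 and 0.51.

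The members differed in size between clones more than in order. With OHT, clone 3031 was highest, 3087 next and 3086 lowest for all 8, an order that 14.3% of the 27022 brighter probe sets had. Clone 3086 held 28.4% to 42.7% of the clone 3031 signal, with a median of 34.7%, and clone 3087 43.8% to 80.9%, with a median of 51.6%. Without OHT the same order held for 6 of the 8, not for Usp17la and BC080696, and clone 3031 was highest for all but BC080696. The share of all probe sets with that order without OHT was not taken. Since 12 of the 24 OHT- values lay under the limit for dim signal, these counts are a description only. Across the 6 arrays the log2 values of any 2 members correlated at 0.75 to 0.998, with a median of 0.98, and at 0.94 or more among the 7 members other than BC080696. These points share the 6 arrays and are dominated by the OHT difference, so they are a description only.

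Whether the members differed with Yaf2 status is a contrast that the choice did not use. All 8 were lower in Yaf2kd than in Yaf2wt after adjustment for OHT, by -0.60 to -1.61 (log2), with a median of -0.98. In this fit 49.8% of all probe sets were lower (49.2% without the dimmest 40%), and since the members move together the 8 are not separate observations. By limma 0 of the 8 passed the adjustment (0% of all 45037 probe sets passed), with adjusted p-values from 0.743 to 0.866; 3011 probe sets (6.69%) had an unadjusted p under 0.05, and with an intensity trend 0 passed as well. An unadjusted p under 0.05 in the lower direction was found for 4 of the 8 and for 3.13% of all. They were the Zscan4 set at -1.04 ± 0.30 (log2 ± SE, 95% interval -1.86 to -0.22), the Gm13057 run at -1.18 ± 0.35, the Gm4340 run at -1.03 ± 0.34 and AF067061 at -1.61 ± 0.55. Without the Yaf2wt OHT+ array that count was 0, and without the OHT- array of clone 3086 it was 2. This fit counts both arrays of a clone separately, while Yaf2 status differs between 1 clone and 2. Clone 3087 lay above clone 3086 under both conditions for 6 of the 8 members, so these intervals may be too narrow.

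Split by condition, the difference of Yaf2kd from Yaf2wt ranged over the members from -0.11 (Usp17la) to -1.72 (AF067061) without OHT, with a median of -0.73, and from -0.77 (Gm20767) to -1.50 (AF067061) with OHT, with a median of -1.25. Yaf2 itself separated the clones as labelled. One of its probe sets read 816 and 769 without and with OHT in clone 3031, 293 and 297 in clone 3086, and 238 and 278 in clone 3087. The other read 658 and 601, 221 and 223, and 252 and 254 in the same order. The 2 Yaf2 probe sets thus order clones 3086 and 3087 in opposite ways.

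The difference of the OHT effect between Yaf2kd and Yaf2wt cells asks whether the response to OHT depends on Yaf2 status. It was negative, meaning a smaller OHT difference in Yaf2kd, for 7 of the 8 members, against 49.1% of all probe sets (48.7% without the dimmest 40%), and AF067061 was the exception at 0.22 ± 1.24 (log2 ± SE). The most negative was Usp17la at -1.01 ± 0.44 (95% interval -2.32 to 0.30), and the Zscan4 set was at -0.66 ± 0.60 (-2.46 to 1.13). By limma 0 of the 8 and 0 of all 45037 probe sets (0%) passed, with an adjusted p of 1 for each member; 2289 (5.08%, and 2.57% in the lower direction) had an unadjusted p under 0.05, 0 of them members, and with an intensity trend 0 passed as well. The intervals are wide, the lone Yaf2wt arrays being assumed to vary like the Yaf2kd pairs, so an OHT difference 2-fold smaller in Yaf2kd lay within the interval of each of the 8. A count of 0 here does not show that the responses were alike.

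**Figure D4:**
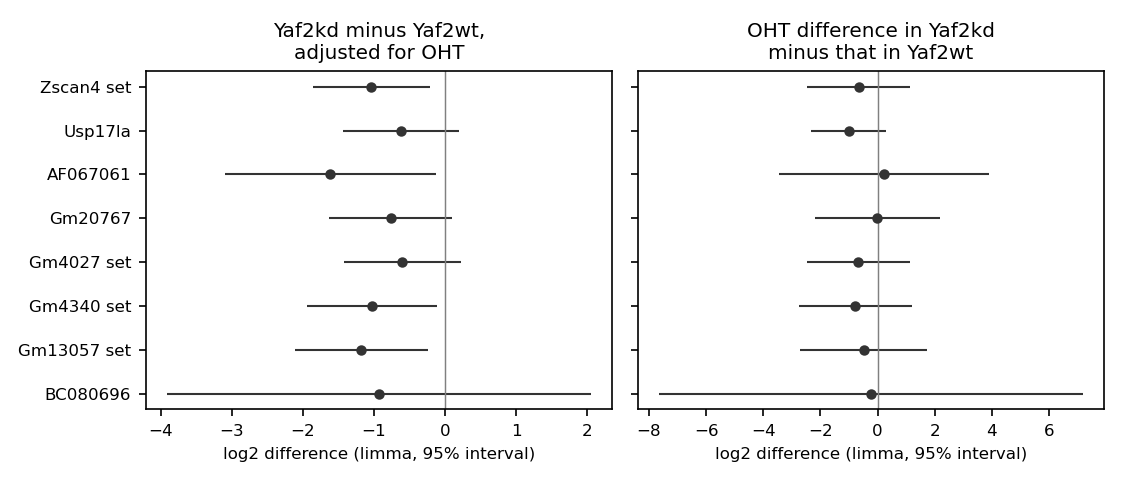
limma estimates (log2, points) with 95% intervals (lines) for the 8 probe sets: left, Yaf2kd minus Yaf2wt adjusted for OHT; right, the OHT difference in Yaf2kd minus that in Yaf2wt. On the left all 8 points are below 0 and 4 intervals exclude it; on the right all 8 intervals include it.

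Rybp probe sets tell the OHT+ from the OHT- arrays. Both are annotated to Rybp and Rybp-ps together, another pair whose symbols do not separate. On the first the signal was 1997, 1785 and 2262 without OHT in clones 3031, 3086 and 3087, and 102, 101 and 53.9 with it; on the second it was 180, 211 and 336 without and 3247, 3443 and 2796 with OHT. In each clone the first was thus lower and the second higher with OHT, and which part of the gene each one reads is not analysed here. Neither ranks the OHT+ clones as the 8 members do.

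Multicopy 2-cell families were taken from a list of 123 symbols. With the members and the probe sets sharing a member's symbol left out, 36 of these symbols were on 43 other probe sets. Of these 17 were higher with OHT in all 3 clones and 3 lower, where 15% and 16.2% of all probe sets were, and the median difference was 0.36 (log2) against -0.0073 for all. By limma 0 passed and 11 of the 43 had an unadjusted p under 0.05, where 6.56% of all probe sets did; with an intensity trend 2 were higher, against 0.115% of all. Most were dim: 15 had a mean above the limit. The highest was the Gm2022 set of the Eif1a-like cluster, at 12.2 without and 286 with OHT in clone 3031, 18.5 and 216 in clone 3086, and 30.8 and 159 in clone 3087, or 3.49 ± 1.10 (SD, n = 3). A PRAME-like probe set annotated to Pramel42 among 7 symbols was at 3.35 ± 0.97, one shared by Pramel3 and 4 other symbols at 2.59 ± 1.69, and Ubtfl1, a preimplantation HMG-box gene, at 2.58 ± 1.11. The Pramel3 and Ubtfl1 probe sets were under the limit for dim signal on all 6 arrays, and that of Pramel42 on all but the OHT+ array of clone 3031. The 3 that were lower in all 3 clones were single probe sets of other families, and 23 of the 43 had no common direction. Tdpoz1, a speckle-type POZ gene of the 2-cell stage, was at -1.75 ± 1.12, a probe set of the oocyte homeobox gene Obox2 at -0.72 ± 0.79, and that of the Duxbl genes at -0.28 ± 0.096, all dim on the 6 arrays.

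Genes of the 2-cell stage outside these families had 38 probe sets, 11 higher and 3 lower in all 3 clones (15% and 16.2% of all probe sets), with a median of 0.33 (log2). By limma 0 passed, 10 of the 38 had an unadjusted p under 0.05 (6.56% of all), and 1 was higher with an intensity trend (0.115% of all). Arg2, an arginase, was at 1.39 ± 0.23 (SD, n = 3) and Cd160, an immune receptor gene, at 2.31 ± 1.51. Neither is the 1 that passed, with adjusted p of 0.34 and 0.52 by limma with an intensity trend. For both, all 3 OHT- arrays lay under the limit for dim signal. Cd160 was also under it on 2 of the 3 OHT+ arrays, and read 4.99 without and 8.08 with OHT in clone 3031. Known regulators of the 2-cell-like state, such as Dppa2, Kdm1a, Trim28 and Setdb1, had 74 probe sets with a median of 0.020. Of these 26 were higher and 14 lower in all 3 clones (15% and 16.2% of all probe sets). At least 2-fold higher in all 3 were 0, against 0.797% of all, a share at which 0 of 74 is no result about the regulators. By limma 0 passed, also with an intensity trend, and 2 of the 74 had an unadjusted p under 0.05 (6.56% of all). The DNA demethylase gene Tet1 had a probe set that read 2772 and 4382, 2177 and 3769, and 3365 and 4933 without and with OHT, at 0.67 ± 0.12. Probe sets of Rnf2, at -1.88 ± 1.65, Tet3, at 0.90 ± 0.90, and Hdac2, at 0.69 ± 0.43, differed more. Those of Rnf2 and Tet3 were under the limit for dim signal on all 6 arrays, and that of Hdac2 on 1 OHT- and 1 OHT+ array.

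Markers of the labelled cell type were bright, with 16 of 18 probe sets of 10 embryonic stem cell genes above the limit on all 6 arrays. Fibroblast markers, looked at since feeder cells were used in some cultures, had 19 probe sets, 10 higher and 1 lower with OHT in all 3 clones (15% and 16.2% of all probe sets), and a summed signal of 1969 and 2432 without and with OHT in clone 3031, 2594 and 3503 in clone 3086, and 2494 and 3443 in clone 3087. That sum was higher with OHT in each clone, while clone 3031, which had the highest member signals, had the lowest fibroblast sum. By limma 0 passed, and 3 of the 19 had an unadjusted p under 0.05 (6.56% of all). Pdgfrb probe sets were at 1.34 ± 0.14 and, mostly dim, 1.85 ± 0.85 (log2 ± SD, n = 3), each higher in all 3 clones. A Col1a2 probe set, dim on all 6 arrays, was at -1.67 ± 0.73. Other Col1a2 probe sets, above the limit on all 6 arrays, were at 0.47 ± 0.24 and 0.16 ± 0.17, each higher in all 3 clones. The part of the fibroblast signal in the OHT difference was not tested.

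The 5 probe sets most like the mean of the members over the 6 arrays, among those with 1 symbol outside these families and above the limit for dim signal, had Pearson r of 0.986 to 0.991. They were 3110040M04Rik, the germ cell tudor-domain gene Rnf17, Lmbr1l, the stem cell F-box gene Fbxo15 and the checkpoint gene Rad17. Likeness by r is not likeness in size: their mean OHT differences were 1.86, 0.39, 0.34, 1.36 and 0.24 (log2). Nor is it always likeness in the order of the clones. With OHT, Lmbr1l read 319, 302 and 299 in clones 3031, 3086 and 3087, where clone 3086 was the lowest for the members. The r values are the highest of 23013 candidates over only 6 arrays. The pattern they were matched to is dominated by the OHT difference, so they are a description only. Fbxo15 read 2173 and 6393 without and with OHT in clone 3031, 1904 and 4668 in clone 3086, and 2241 and 5299 in clone 3087.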

How the data were processed

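The authors deposited 1 table of probe-set intensity values for 6 arrays; Affymetrix Expression Console and RMA are listed in the submitters' processing notes, without roles, versions or a genome build. Values run from 0.14 to 45795 with a median of 102, and once sorted they are identical between arrays; they were therefore read as quantile-normalized and linear, where the design also allowed for log2. Precision is limited by having 6 arrays. The log2 of the deposited intensity was analysed by limma 3.58.1 (lmFit and eBayes, R 4.3.3) over 45037 probe sets (64 controls left out), adjusted by Benjamini-Hochberg at 0.05. On simulated data this fit, without an intensity trend, recovered 0% of changes of 1 log2 unit for each of the 3 contrasts. At 3 log2 units it recovered 0% for the difference of OHT effects and 100% for the other contrasts. The simulated noise was independent between arrays, without clone differences, and changes were placed only in brighter probe sets. The 100% therefore does not carry over to these data. Here the members differed with OHT by means of 2.90 to 4.22 (log2), and 0 probe sets passed. A count of 0 does not show that changes of these sizes are absent, for any of the contrasts. The Yaf2 effect and the OHT effect came from a model of both terms, and the difference of OHT effects from a 4-group model. The Yaf2kd clones are biological duplicates per the labels, and Yaf2wt has none. Arrays of 1 clone are paired by the labels. Over the probe sets above the limit for dim signal, the log2 difference between the Yaf2kd clones with OHT correlated at 0.12 with that without OHT.

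Members, lists and the naming rule were chosen with earlier results of these data known. Named were all members, Rybp and Yaf2 probe sets, those sharing a member's symbol, up to 6 others per direction of the multicopy list and up to 4 of each other list with 1 direction in all 3 clones and the largest differences, and the 5 most alike in pattern; not all of these are printed. Probe sets are called by the symbols of the platform annotation. Promoter windows were aligned locally with Biopython 1.88. Alternatives were an intensity trend, leaving out dim probe sets, an offset of 32, a floor, 1 probe set per symbol, clone as a block, and leaving out arrays or clones.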

Additional observations from a re-analysis of the deposited data

How the results depend on the processing

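Over 45037 probe sets limma called 0 for each of the 3 contrasts. With values under the 40th percentile set to it, the count became 17 for the Yaf2 effect, 736 for the difference of OHT effects and 1 for OHT; of the 736, 656 have no spread left within their groups, which the floor itself makes. For OHT an intensity trend gave 63, and 2 settings chosen after seeing the data, a trend without the dimmest 40% and a trend with clone as a block, gave 85 and 101. With clone as a replicate block and no trend the count was 0 for all 3 contrasts, and leaving out each array in turn left it between 0 and 0; for the difference of OHT effects only the 4 Yaf2kd arrays could be left out. The other settings gave 0 as well.

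The Yaf2 effect of the 8 members kept its sign under all 14 alternatives, with 0 called and adjusted p-values from 0.21 to 1, but not its size. Without the Yaf2wt OHT+ array Usp17la went from -0.62 to -0.11, the Gm4027 set from -0.60 to -0.26 and the Gm4340 run from -1.03 to -0.64. Without the Yaf2wt OHT- array Usp17la went to -1.12 and the Gm4027 set to -0.94. BC080696 went from -0.93 to -1.74 and -0.15 without the untreated arrays of clones 3086 and 3087. The difference of OHT effects changed sign for 3 members, none called under any setting. AF067061, at 0.22 in the full fit, was at -0.53 with the offset and -1.33 with the floor, and ranged from -0.63 to 1.07 with single Yaf2kd arrays left out (-0.63 without the untreated array of clone 3086, -0.091 without the treated array of clone 3087). BC080696 ranged from -2.09 to 1.63 and Gm20767 from -0.47 to 0.45 in the same way; the values above 0 were 1.63 without the untreated array of clone 3086 for BC080696, and 0.45 and 0.18 without the treated array of clone 3086 and the untreated array of clone 3087 for Gm20767. The cause was not tested for these. Over all probe sets precision was lower at dim signal. The median SD between the Yaf2kd clones was 0.78 (log2) for the dimmest 40% and 0.19 for the rest. By mean signal all 8 members are among the rest, though 12 of their 24 OHT- values lay under the limit of 61.5.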
